A study of Mus musculus with 23 samples.

Results

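The data described here are 8 of the 23 brain libraries of a mouse RNA-sequencing series. They comprise 4 libraries from Csf1R-G793A mice on C57BL/6J background fed PLX5622 chow (1200 mg/kg) for 14 days, and 4 libraries from Csf1R-G793A mice fed control chow over the same 14 days. The libraries were chosen by genotype and diet alone, and all 8 carry the G793A change, so the control is the same mutant without the inhibitor. The remaining groups of the series serve as comparison: G793A mice on PLX3397 (290 mg/kg, n = 4), wild-type (WT) mice on PLX5622 (n = 4), WT mice on PLX3397 (n = 4) and WT mice on control chow (n = 3). The series asked whether inhibitor effects on the brain transcriptome are prevented by Csf1R-G793A. The labels give neither sex, age nor brain region, and they do not say that the libraries of a group came from separate mice or litters, and p-values then describe the spread among libraries, which may be technical. Gene counts show how much Csf1r transcript there was and cannot show the substitution itself.

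CSF1R is the tyrosine kinase receptor for the cytokines CSF1 and IL-34. Microglia, the resident macrophages of the brain parenchyma, and the border-associated macrophages of meninges and vessels need its signal to survive. PLX5622 and PLX3397 are brain-penetrant small molecules that occupy the kinase and deplete these cells in mice with the normal receptor. A transcript found mainly in microglia therefore reports on how much microglial RNA the tissue held. In bulk tissue, fewer cells and less RNA per cell cannot be told apart.

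The 8 libraries held between 29853510 and 48174788 counts each. Levels are given as CPM, the count of a gene scaled to a common library total, and differences as log2 fold changes ± SE from one edgeR model of all 23 libraries, PLX5622 over control. Brain markers were present in every library of both diets. The neuronal transporter gene Slc17a7 lay between 871 and 1014 CPM with PLX5622 and between 884 and 1065 CPM in controls. Mbp, of myelin, lay between 1721 and 1953 CPM with PLX5622 and between 1569 and 2591 CPM in controls.

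PLX5622 replicate 2 stood apart. It held cerebellar transcripts, with the granule cell gene Cbln3 at 221 CPM, against 0.906 to 1.21 CPM in the other 3 PLX5622 libraries and 0.760 to 1.47 CPM in the controls. Gabra6 and Fat2, also cerebellar, reached 78.4 and 84.5 CPM in it and at most 1.07 CPM elsewhere among the 8. Outside the 8, WT PLX5622 replicate 1 also held more cerebellar transcripts. Summed over 12 cerebellar genes it had 460.1 CPM, against 267.5 to 284.8 CPM in the other WT libraries on PLX5622. Over 10 pituitary genes it had 105.4 CPM, against 5.76 to 15.28 CPM. Among the G793A controls, replicate 3 held the most Ttr of the choroid plexus (1076 CPM) and the steepest trend along transcript length, given further on. Values without PLX5622 replicate 2 are therefore given beside those that it moved.

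No gene passed an adjusted p of 0.05 between G793A mice on PLX5622 and G793A controls (edgeR quasi-likelihood test, Benjamini-Hochberg adjustment over 16209 genes, 0% called). At an unadjusted p under 0.05 there were 2639 genes (16.3%), 1367 higher (8.43%) and 1272 lower (7.85%). Without PLX5622 replicate 2 the counts were again 0 and then 1915. DESeq2 called 313 genes in the same 23 libraries, 179 higher and 134 lower, and limma-voom called 0. The count also turned on a single control. Without control replicate 2, edgeR called 980 genes, 542 higher (3.35%) and 438 lower (2.71%), and without both replicate 2 libraries it called 314.

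Csf1r, the target gene, had 74.2, 58.8, 77.3 and 76.0 CPM in G793A mice on PLX5622, against 78.5, 78.9, 88.4 and 79.9 CPM in G793A controls. Every PLX5622 library lay below every control, and replicate 2 with cerebellar transcripts was the lowest. The log2 fold change was −0.18 ± 0.18 (95% interval −0.56 to 0.19, edgeR adjusted p = 0.656), which is 88.0% of the control level with an interval of 67.7% to 114%. Without replicate 2 it was −0.11 ± 0.19. In the fit of the 8 libraries alone, which leaves out the wide spread of depleted WT brains, it was −0.18 ± 0.09 (edgeR adjusted p = 0.483). The same diet left 13.1% of the control level of Csf1r in WT mice.

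The ligand genes were close to the controls. Csf1, expressed by glia and needed by microglia mainly in white matter, stood at 19.4 to 22.9 CPM with PLX5622 and 20.5 to 22.6 CPM in controls (−0.02 ± 0.07, and 0.00 without PLX5622 replicate 2). Il34, the neuronal ligand, stood at 40.3 to 52.8 CPM with PLX5622 and 47.3 to 55.5 CPM in controls (−0.14 ± 0.07, edgeR adjusted p = 0.355), and the difference was −0.08 without PLX5622 replicate 2. Their ranges overlapped, and neither gene passed.

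**Figure D1:**
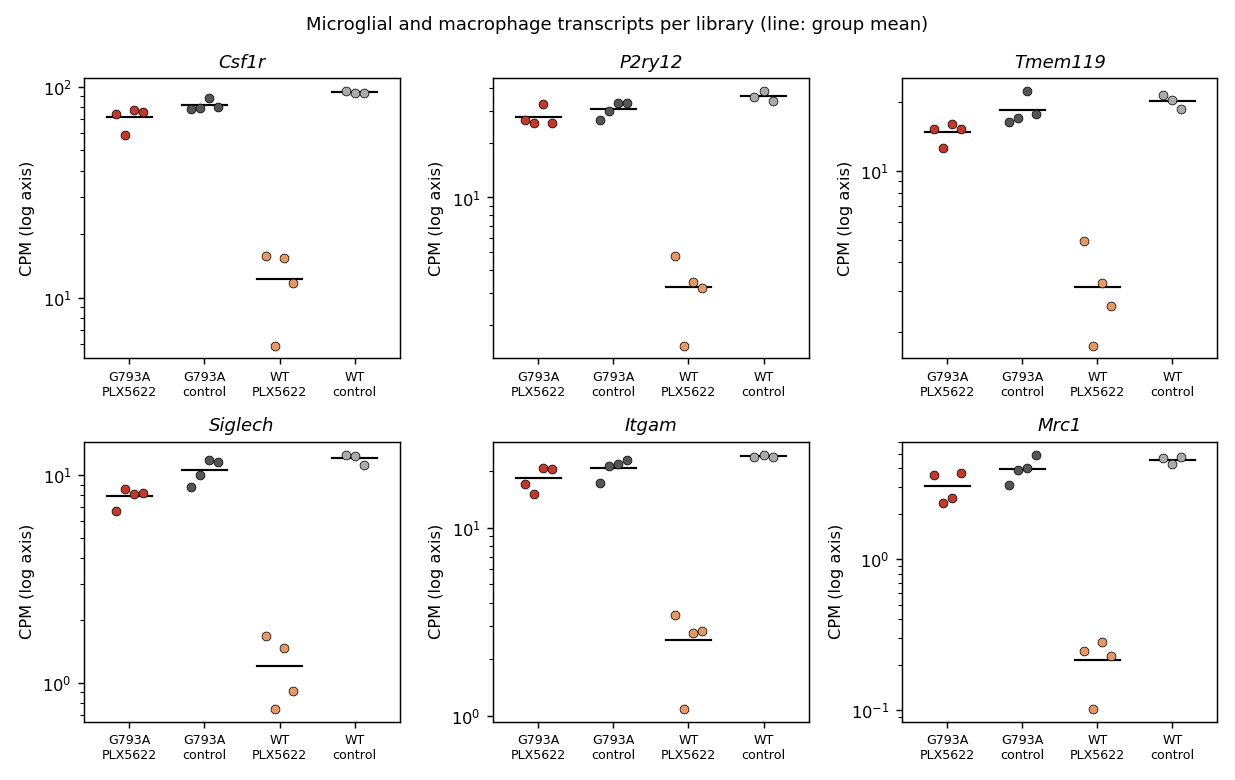
Levels of 6 microglial and macrophage transcripts in CPM on a log axis, 1 point per library, with a line at each group mean, for G793A mice on PLX5622 and on control chow and for WT mice on PLX5622 and on control chow. The G793A libraries on PLX5622 sit close below their controls, for example at 25.7 to 32.7 CPM of P2ry12 against 26.5 to 33.2 CPM, while WT libraries on PLX5622 sit at 1.53 to 4.74 CPM against 33.8 to 38.4 CPM.

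Surface receptors that mark homeostatic microglia kept most of their level. P2ry12, a purinergic receptor through which microglial processes sense nucleotides, had 26.7, 25.8, 32.7 and 25.7 CPM with PLX5622, against 26.5, 29.7, 33.2 and 33.2 CPM in G793A controls. These groups overlapped, and the difference was −0.15 ± 0.16 (interval −0.49 to 0.19). The fractalkine receptor gene Cx3cr1 had 44.8, 37.4, 48.4 and 44.3 CPM with PLX5622, against 42.0, 48.7, 55.5 and 49.1 CPM in controls. It too overlapped (−0.16 ± 0.18, and −0.10 without PLX5622 replicate 2).

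Siglech, a lectin of microglia, showed the lowest values relative to controls among the always-named homeostatic genes. It had 6.73, 8.57, 8.14 and 8.25 CPM with PLX5622, against 8.78, 10.1, 11.8 and 11.5 CPM in controls. No PLX5622 library reached the lowest control. The difference was −0.41 ± 0.15 (interval −0.73 to −0.10), or 75.1% of the control level, and it did not pass over all genes (edgeR adjusted p = 0.196). Without PLX5622 replicate 2 it was −0.46 ± 0.17, so the cerebellar library did not set it.

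Promoters are shown for P2ry12 and Siglech because both are among the genes with the smallest p-values in the comparison with WT mice given further on. They cover the 250 bases before the RefSeq start (GRCm38.p6), at chr3:59262986-59263235 on the minus strand for P2ry12 and at chr7:55767934-55768183 on the plus strand for Siglech. The bases around the RefSeq start matched the start of a GENCODE transcript for Siglech, and of no GENCODE transcript for P2ry12. Both were searched on both strands for GAGGAA, a core of PU.1 binding sites, which would stand in capitals. It was found 0 times in either window, and 23.3% of 32851 promoter windows of this length hold it. Other forms of the site were not searched, so this does not show that PU.1 sites are absent.
P2ry12: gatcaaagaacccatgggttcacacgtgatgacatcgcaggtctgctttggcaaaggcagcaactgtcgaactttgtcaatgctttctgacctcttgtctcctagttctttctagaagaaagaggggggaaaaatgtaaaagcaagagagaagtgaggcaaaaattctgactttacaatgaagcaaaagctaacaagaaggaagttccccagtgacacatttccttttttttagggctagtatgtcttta
Siglech: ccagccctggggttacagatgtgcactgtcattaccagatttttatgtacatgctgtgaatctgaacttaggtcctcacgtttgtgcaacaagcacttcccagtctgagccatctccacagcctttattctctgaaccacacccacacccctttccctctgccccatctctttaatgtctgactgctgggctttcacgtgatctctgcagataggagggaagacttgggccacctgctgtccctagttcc

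Tmem119, a membrane protein gene used to tell microglia from blood-derived macrophages, had 15.2, 12.6, 16.0 and 15.2 CPM with PLX5622, against 16.4, 17, 22.2 and 17.6 CPM in controls. These groups did not overlap either (−0.31 ± 0.18, edgeR adjusted p = 0.412). Trem2, a lipid-sensing receptor gene of microglia, stood at 6.59 to 9.10 CPM with PLX5622 and 8.86 to 12.4 CPM in controls (−0.38 ± 0.17, edgeR adjusted p = 0.264). In Trem2 a single PLX5622 library, replicate 4, lay above the lowest control.

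Across the 15 homeostatic microglia genes, all 15 had log2 fold changes below 0, and the median was −0.24. Over all genes tested 50.1% were below 0 and the median was −0.00037. Without control replicate 2, 1 of the 15 passed as lower, Cst3 (−0.44 ± 0.12, edgeR adjusted p = 0.0302), against 2.71% of all genes. None of the 15 passed with all libraries. In 5 of them (Siglech, Tmem119, Fcrls, Olfml3 and Selplg) every PLX5622 library lay below every control, as it did in 2.83% of all genes (the reverse order held in 2.55%). Without PLX5622 replicate 2 it was again 5, where 3.97% of all genes were lower without overlap and 3.63% higher. The median was −0.17 without PLX5622 replicate 2, −0.17 in limma on the deposited variance-stabilised values, −0.19 without control replicate 3, and −0.23 once the trend along transcript length and GC content was removed. Members of this list were chosen with earlier results of these data known, so the counts describe it and carry no test.

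Pan-myeloid genes, shared by microglia, macrophages and blood myeloid cells, had 14 of 16 members below 0, a median of −0.24 and 0 passed. That median was −0.16 without PLX5622 replicate 2 and −0.10 in limma on the deposited values. Laptm5, which encodes a lysosomal membrane protein of hematopoietic cells, had 26.5, 24.5, 28.0 and 28.6 CPM with PLX5622, against 33.6, 33.1, 34.0 and 36.2 CPM in controls. It had the smallest p-value of all genes when the 8 libraries were fitted alone (−0.35 ± 0.07, edgeR adjusted p = 0.466), and it was singled out after its values were seen. Aif1, which encodes the marker IBA1, stood at 3.13 to 4.02 CPM with PLX5622 and 3.80 to 5.16 CPM in controls (−0.34 ± 0.16). Itgam, the integrin CD11b, stood at 15.1 to 20.7 CPM with PLX5622 and 17.3 to 22.9 CPM in controls (−0.18 ± 0.18, and −0.11 without PLX5622 replicate 2). Summed over the 16 genes, the level was 211 to 244 CPM with PLX5622 and 255 to 289 CPM in G793A controls, without overlap. Sums overlapped for the 15 homeostatic genes, at 1317 to 1484 CPM with PLX5622 and 1341 to 2085 CPM in G793A controls. For 10 complement genes they overlapped as well, at 134 to 156 CPM with PLX5622 and 151 to 207 CPM in G793A controls.

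The C1q genes, which encode the subunits of the first complement component and are made in the brain mainly by microglia, had values in the same direction. C1qa had 25.8, 23.1, 27.5 and 26.9 CPM with PLX5622, against 31.3, 28.4, 44.2 and 32.4 CPM in controls (−0.40 ± 0.22). C1qb stood at −0.41 ± 0.20 and C1qc at −0.37 ± 0.20, and in all 3 the groups did not overlap, which held in 3 of 10 complement genes and 2.83% of all genes. Control replicate 3 was the highest library in each. These genes were named after their values were seen, and none passed (edgeR adjusted p between 0.316 and 0.377). Over the 10 complement genes the median was −0.10.

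Border-associated macrophages were described by 12 genes. Mrc1, the mannose receptor gene, had 3.65, 2.37, 2.55 and 3.74 CPM with PLX5622, against 3.09, 3.91, 4.01 and 4.95 CPM in controls. The groups overlapped (−0.36 ± 0.22, interval −0.81 to 0.08). Stab1, a scavenger receptor gene, had 10.7, 8.44, 9.18 and 10.5 CPM with PLX5622, against 11.6, 11.8, 13.7 and 13.3 CPM in controls. Its groups were separate (−0.37 ± 0.11, edgeR adjusted p = 0.154), and without control replicate 2 it passed (−0.40 ± 0.12, edgeR adjusted p = 0.0481), while in limma on the deposited values the difference was −0.06. Pf4, a chemokine gene, was below 1 CPM in all 8 libraries (−0.51 ± 0.35, and −0.32 without PLX5622 replicate 2). Of the 12 genes 11 were below 0 with a median of −0.24 and 0 passed, and their summed level was 18.4 to 22.7 CPM with PLX5622 and 23.6 to 28.2 CPM in controls. The median was −0.05 in limma on the deposited values, on a scale that shrinks differences in genes with few counts.

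Transcription factor genes of the lineage had a median close to 0. Spi1, which encodes PU.1, had 2.15, 2.56, 2.73 and 2.55 CPM with PLX5622, against 2.75, 2.56, 2.86 and 2.11 CPM in controls (−0.04 ± 0.19). Runx1, a factor gene raised in developing and activated microglia, stood at 0.979 to 1.45 CPM with PLX5622 and 0.641 to 0.992 CPM in controls (0.47 ± 0.21, edgeR adjusted p = 0.262). Irf8 stood at −0.34 ± 0.18. Of the 10 factor genes 5 were above 0 and 5 below, with a median of −0.01 (0.02 without PLX5622 replicate 2), and 0 passed. In WT mice the median was −0.26, and 4 of the 10 fell, against 1.59% of all genes. Spi1, Runx1 and Irf8 were named after their values were seen.

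Genes of the disease-associated microglial state were not raised as a group. Of the 15 tested 10 were below 0, and the median was −0.06. In WT mice on PLX5622 the median was −0.02, and 1 of the 15 fell, against 1.59% of all genes. The list thus moved little even there, and its median cannot tell whether microglia took on this state. Apoe, the lipid carrier gene made by astrocytes and activated microglia, stood at 1048 to 1253 CPM with PLX5622 and 1114 to 1645 CPM in controls (−0.24 ± 0.09, edgeR adjusted p = 0.189). Without control replicate 2 Apoe passed (−0.32 ± 0.08, edgeR adjusted p = 0.0287). In that setting 2 genes of the list passed as lower, against 2.71% of all genes. Cst7 did not reach the count minimum and lay between 0 and 0.183 CPM in the 8 libraries. Spp1, which encodes osteopontin, was higher in every PLX5622 library (18.0 to 27.2 CPM) than in every G793A control (15.1 to 16.4 CPM). Its difference was 0.46 ± 0.33 (edgeR adjusted p = 0.516), in a gene that reached 43.3 CPM in a WT control, and it was picked out after its values were seen. The 17 interferon-stimulated genes had a median of 0.05 (−0.06 without PLX5622 replicate 2) and the 13 antigen presentation genes of −0.21, with 0 passed in either list.

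Innate immune receptors and signalling genes lay on both sides of 0. Unc93b1, the chaperone that carries nucleic acid sensing Toll-like receptors to endosomes, had 8.79, 7.96, 8.55 and 9.18 CPM with PLX5622, against 9.86, 10.5, 11.3 and 10.5 CPM in controls. Its groups did not overlap (−0.29 ± 0.12, edgeR adjusted p = 0.247). Tlr7, a receptor for single-stranded RNA, stood at 2.41 to 2.75 CPM with PLX5622 and 2.23 to 3.45 CPM in controls (−0.15 ± 0.17). Psmb8, an immunoproteasome gene of antigen processing, had 2.40, 2.46, 2.28 and 2.38 CPM with PLX5622, against 3.09, 2.87, 3.87 and 2.63 CPM in controls (−0.38 ± 0.16, edgeR adjusted p = 0.229). Over 13 genes of the Toll-like receptor list the median was −0.12 with 9 below 0 (50.1% of all genes were), 4 above, and 0 passed. Il1b, the interleukin 1 beta gene, went the other way, with 1.35, 0.863, 0.241 and 1.02 CPM with PLX5622, against 0.245, 0.475, 0.427 and 0.244 CPM in controls (1.32 ± 0.63, edgeR adjusted p = 0.304). Replicate 3 was its exception. These 4 genes were named after their values were seen.

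TGF-beta signalling keeps microglia in their homeostatic state. Its receptor gene Tgfbr1, much of it microglial in brain, had 33.0, 33.7, 39.3 and 33.4 CPM with PLX5622, against 25.9, 35.3, 38.3 and 33.5 CPM in G793A controls (0.07 ± 0.11). The groups overlapped in G793A, while in WT mice the gene stood at 14.9 to 19.0 CPM on PLX5622 and 35.0 to 39.2 CPM in controls. The difference in effect passed (interaction 1.29 ± 0.16, edgeR adjusted p = 2.81e-05). Over 13 genes of the TGF-beta list the median in G793A was 0.01 (0.05 without PLX5622 replicate 2), with 7 above 0 and 0 passed. Tgfbr1 was singled out after its values were seen.

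A direct test of the difference in PLX5622 effect between genotypes, the interaction, compared the change within G793A with the change within WT. It called 131 genes (0.808%), of which 130 were higher in G793A relative to WT (0.802%) and 1 was lower (0.00617%). All 130 were among the 257 genes that fell with PLX5622 in WT mice (1.59%), where 12 rose (0.074%) and 269 passed in all (1.66%). The interaction includes that same WT change from the same libraries. This overlap is therefore partly built in and is no separate support. The smallest p-values belonged to Stab1 (2.07 ± 0.17), the phospholipase D family gene Pld4 (2.75 ± 0.23), Siglech (2.89 ± 0.25) and P2ry12 (3.32 ± 0.26), each with an edgeR adjusted p of 1.34e-07. P2ry13, another purinergic receptor gene, followed (3.65 ± 0.32, edgeR adjusted p = 2.54e-07). The count was between 115 and 144 whichever single library was left out, and 126 of the 131 were called again after the trend along length and GC content was removed.

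Both genotypes can be read side by side in the same genes. Csf1r was at −0.18 ± 0.18 in G793A and fell by 2.93 ± 0.21 in WT, a difference of 2.75 ± 0.27 (interaction, edgeR adjusted p = 5.46e-06). Mrc1 was at −0.36 ± 0.22 in G793A and fell by 4.37 ± 0.30 in WT, a difference of 4.00 ± 0.38. The interaction was 2.98 ± 0.28 for Cx3cr1, 3.04 ± 0.29 for Itgam, 2.37 ± 0.28 for Tmem119, 1.95 ± 0.26 for Trem2, 1.63 ± 0.25 for Aif1 and 3.33 ± 0.67 for Pf4, all past the threshold. Among the lists it passed for 12 of 15 homeostatic genes, 14 of 16 pan-myeloid genes, 5 of 12 border-associated macrophage genes and 3 of 10 complement genes. All of these were higher in G793A relative to WT, against 0.802% of all genes. The lists were chosen with earlier results of these data known, so these counts carry no test. In the order of these 4 lists the medians were −0.24, −0.24, −0.24 and −0.10 in G793A, against −2.67, −2.20, −1.78 and −1.73 in WT.

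The 257 genes that fell in WT had a median log2 fold change of −1.53 there, or 34.7% of the WT control level. In G793A mice on PLX5622 the same genes had a median of −0.17, or 89.1% of the G793A control level, with quartiles of −0.30 and −0.06. No library is shared between these comparisons, although the model shares a spread per gene. Of the 257, 222 (86.4%) were below 0 in G793A, against 50.1% of all genes, and in 37 (14.4%) the G793A groups were separate and lower, against 2.83% of all genes. In 7 of the 257 the G793A value was more negative than 50% of the WT value. Without PLX5622 replicate 2 the median was −0.15.

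**Figure D2:**
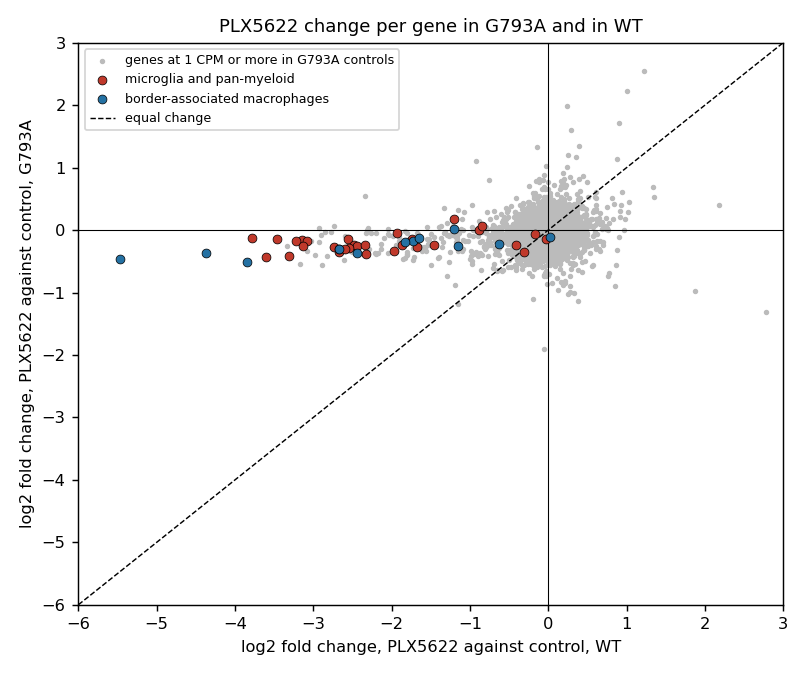
Log2 fold change with PLX5622 in G793A mice (vertical axis) against that in WT mice (horizontal axis), 1 point per gene, for genes at a mean of 1 CPM or more in G793A controls and for the listed macrophage genes, with a dashed line where both changes would be equal. Microglial, pan-myeloid and border-associated macrophage genes spread along the WT axis to −4.37 (Mrc1) and beyond (Cd209f, at or near 0 CPM in WT mice on PLX5622) and lie between −0.51 (Pf4) and 0.18 (Csf3r) on the G793A axis. A single gene, of 13972 plotted, lies outside the axes.

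The gene that was lower in the interaction was Plcxd1, a phospholipase C domain gene (−0.75 ± 0.16, edgeR adjusted p = 0.0155). It had 8.32, 7.71, 8.38 and 8.53 CPM in G793A mice on PLX5622, against 8.98, 11.4, 11.2 and 12.7 CPM in G793A controls. In WT mice the order was the other way, with 9.29 to 11.3 CPM on PLX5622 and 7.70 to 10 CPM in controls. The call was lost without WT control replicate 1 (edgeR adjusted p = 0.0780), without WT control replicate 2 (0.0808) and without both libraries that held cerebellar transcripts (0.0727), and in that order the difference was −0.68, −0.68 and −0.71. The next in that direction, Lmf1 (−0.44 ± 0.11), Krt8 (−1.75 ± 0.47), Cst6 (−0.69 ± 0.19) and Pop7 (−0.41 ± 0.11), did not pass.

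Neutrophil transcripts were among the larger listed differences, at low levels and without passing the test. S100a8 and S100a9 encode the calprotectin subunits that fill neutrophil cytoplasm. S100a8 had 2.40, 1.41, 8.90 and 1.70 CPM in G793A mice on PLX5622, against 0.147, 1.05, 1.02 and 0.275 CPM in G793A controls (2.50 ± 0.85, edgeR adjusted p = 0.176). S100a9 had 3.67, 2.62, 9.21 and 2.32 CPM with PLX5622, against 0.491, 0.971, 1.05 and 0.397 CPM in controls (2.59 ± 0.82, edgeR adjusted p = 0.161). Every PLX5622 library was above every control in both genes, and replicate 3 was the highest. Such separation held in 3 of the 9 tested genes of monocytes and neutrophils, against 2.55% of all genes. Without replicate 2 the differences were 2.76 ± 0.87 and 2.77 ± 0.86.

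The promoter of S100a9 is shown because it had the smaller p-value of the pair. It covers the 250 bases before the RefSeq start (GRCm38.p6), near which a GENCODE transcript also starts, at chr3:90695722-90695971 on the minus strand. Capitals mark TTNNGNAA, a form of the C/EBP binding motif of myeloid genes, on either strand. It occurs 2 times, at 236 and 130 bases before the start, and 36.8% of the 32851 windows hold it.
S100a9: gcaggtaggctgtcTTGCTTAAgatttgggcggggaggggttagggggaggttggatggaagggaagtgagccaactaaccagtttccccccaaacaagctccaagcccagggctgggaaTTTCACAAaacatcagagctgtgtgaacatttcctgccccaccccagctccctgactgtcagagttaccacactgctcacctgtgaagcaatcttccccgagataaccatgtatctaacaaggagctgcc

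Other members of the list followed in part. Retnlg, a resistin-like gene of neutrophils, had 0.685, 0.352, 0.586 and 0.567 CPM with PLX5622, against 0.0491, 0.103, 0.197 and 0 CPM in controls. Ngp and Mpo, granule genes of immature neutrophils, reached 4.35 and 2.17 CPM in PLX5622 replicate 3 and at most 0.352 CPM in the other 7 libraries. That library thus held granule transcripts that the other PLX5622 libraries lacked, while S100a8, S100a9 and Retnlg were higher in all 4. Ccr2, a monocyte receptor gene of the same list, was the one of 9 tested members below 0 (−0.30, and −0.49 without PLX5622 replicate 2).

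The 9 tested genes of monocytes and neutrophils had a median of 1.92 (2.20 without PLX5622 replicate 2), 6 were higher at an unadjusted p under 0.05 (8.43% of all genes were), and 0 passed. In limma on the deposited values the median was 0.29, on a scale that shrinks differences in genes with few counts. The summed level of the list was 7.76 to 35.0 CPM with PLX5622 and 1.74 to 5.06 CPM in G793A controls. WT mice showed values in the same direction, with 2.35 to 11.6 CPM on PLX5622 and 1.16 to 2.23 CPM in controls. The interaction passed for 0 of the 9. These transcripts are abundant in blood, and the summed level of red blood cell genes was 369 to 554 CPM with PLX5622 and 418 to 751 CPM in controls; its part in the result was not tested. The genes named here were chosen after their values were seen.

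**Figure D3:**
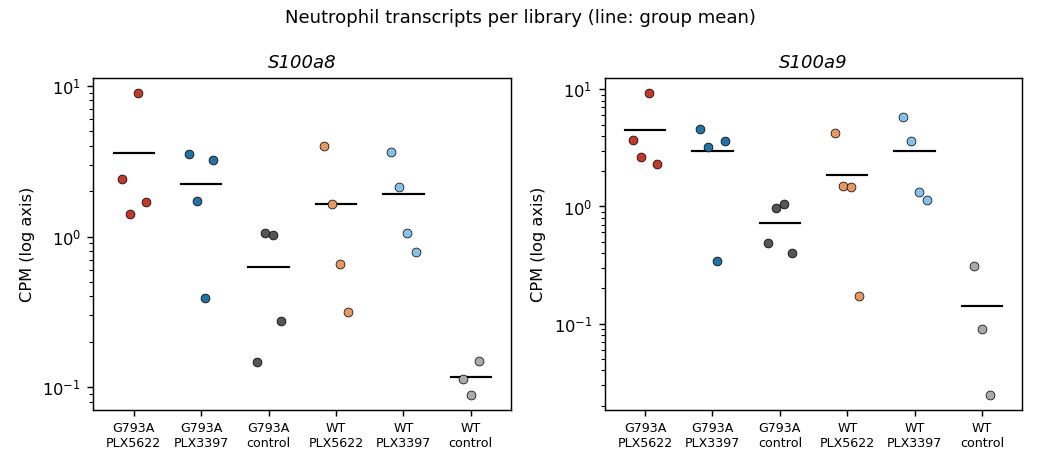
Levels of S100a8 and S100a9 in CPM on a log axis, 1 point per library, with a line at each group mean, in G793A mice on PLX5622, PLX3397 and control chow and in WT mice on the same diets. All 4 G793A libraries on PLX5622 lie above the G793A controls for both genes, with replicate 3 the highest at 8.90 CPM of S100a8 and 9.21 CPM of S100a9.

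PLX5622 and PLX3397 also bind kinases related to CSF1R, in differing degree, so the genes of that family were described as well. Pdgfra, the receptor gene that marks oligodendrocyte precursors, had 65.0, 58.4, 70.5 and 69.8 CPM with PLX5622, against 62.4, 66.8, 67.1 and 69.1 CPM in G793A controls. The groups overlapped and the difference was −0.01 ± 0.08, with an interval of −0.17 to 0.15. Cspg4, the precursor proteoglycan NG2, was at 0.08 ± 0.09. Without PLX5622 replicate 2 the differences were 0.04 in Pdgfra and 0.17 in Cspg4. Over 12 precursor genes the median was −0.02 (0.02 without that library), with 0 passed, 7 below 0 and 5 above.

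In G793A mice on PLX3397 Pdgfra had 48.2, 50.7, 47.9 and 35.9 CPM. Set against each other in the same genotype, PLX5622 over PLX3397, Pdgfra was the only gene past the threshold (0.53 ± 0.08, edgeR adjusted p = 0.00899, 0.00617% called). DESeq2 called 2 genes, and 1110 (6.85%) lay at an unadjusted p under 0.05 in edgeR. The call was lost when the 12 G793A libraries were fitted alone (adjusted p = 0.714), without PLX5622 replicate 3 (0.0833) and without PLX5622 replicate 4 (0.0856), while the difference stayed between 0.43 and 0.58. The chow doses differed (1200 and 290 mg/kg), so this does not compare the molecules at a matched dose.

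Kit and Flt3, receptor kinase genes of blood progenitors that some neurons also express, had higher means with PLX5622. Kit had 57.0, 71.9, 49.6 and 49.2 CPM with PLX5622, against 50.8, 50.3, 38.4 and 46.0 CPM in controls (0.29 ± 0.11, edgeR adjusted p = 0.185). Flt3 had 7.61, 10.4, 6.21 and 6.63 CPM with PLX5622, against 6.92, 5.75, 6.07 and 5.89 CPM in controls (0.32 ± 0.14, edgeR adjusted p = 0.246). The cerebellar library, replicate 2, was the highest in both, and without it the differences were 0.16 ± 0.09 and 0.14 ± 0.12. Neither passed, and over 10 genes of the family and its ligands the median was −0.02 (−0.06 without replicate 2).

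**Figure D4:**
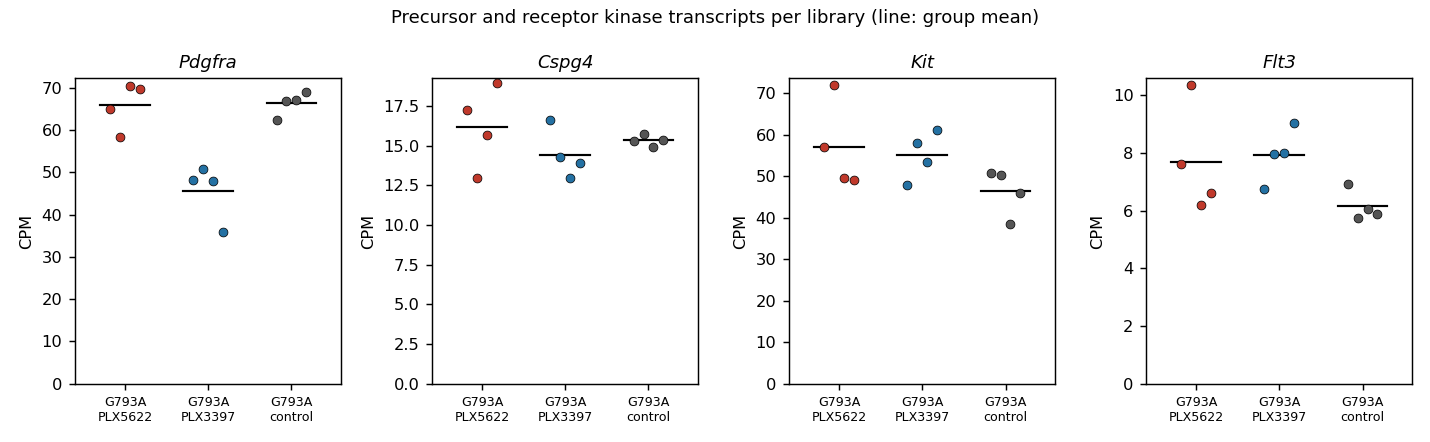
Levels of Pdgfra, Cspg4, Kit and Flt3 in CPM, 1 point per library, with a line at each group mean, in G793A mice on PLX5622, on PLX3397 and on control chow. Pdgfra lies at 58.4 to 70.5 CPM on PLX5622, 35.9 to 50.7 CPM on PLX3397 and 62.4 to 69.1 CPM on control chow, and the highest Kit and Flt3 points belong to PLX5622 replicate 2.

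The other cell types of the brain are described by their lists. The 15 myelin genes had a median of −0.05, the 10 committed precursor genes of −0.04, the 12 astrocyte genes of −0.12, the 10 excitatory neuron genes of 0.11 and the 10 inhibitory neuron genes of 0.13 (0.04 without PLX5622 replicate 2), with 0 passed in each. All 13 endothelial genes were below 0, with a median of −0.16 (−0.17 without PLX5622 replicate 2), where WT mice had −0.14. The tight junction gene Cldn5 had 28.6, 35.2, 32.8 and 35.8 CPM with PLX5622, against 38.6, 39.0, 45.0 and 37.0 CPM in G793A controls (−0.27 ± 0.13, edgeR adjusted p = 0.319). Its groups did not overlap, as was so for Tek and Itm2a, making 3 of 13 endothelial genes, against 2.83% of all genes. Choroid plexus genes had a median of −0.45, with Ttr, the transthyretin gene, at 206, 338, 376 and 205 CPM with PLX5622 and at 214, 336, 1076 and 600 CPM in controls. The controls with the most Ttr were replicates 3 and 4.

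The following lists had medians within 0.1 of 0 and 0 passed genes, with −0.03 for 16 proliferation genes, 0.06 for 12 immediate early genes, −0.00 for 14 circadian genes, 0.04 for 12 glucocorticoid response genes, 0.02 for 18 cholesterol genes, −0.05 for 12 stress response genes, −0.04 for 9 p53 targets, −0.09 for 16 lysosomal genes, −0.06 for 16 genes of forebrain regions, 0.06 for 13 reactive astrocyte genes, −0.05 for 10 inflammatory genes, 0.05 for 14 chemokine genes and −0.09 for 16 respiratory chain genes. Of the respiratory chain genes 8 were lower at an unadjusted p under 0.05, against 7.85% of all genes. Without control replicate 2, 6 respiratory chain and 2 lysosomal genes passed as lower, against 2.71% of all genes. Further lists were mural cells and fibroblasts (−0.11, 12 genes), lymphocytes (0.16, 6 genes), the 1 tested mast cell gene (−0.33), pituitary genes (−0.93, 7 genes, at low levels) and red blood cell genes (−0.48, 7 genes). No member of these lists passed either. Without PLX5622 replicate 2 the median was 0.00 for proliferation, immediate early and p53 genes, 0.01 for circadian and forebrain genes, −0.03 for stress response genes, 0.03 for chemokine genes and −0.31 for red blood cell genes. Mki67, a proliferation marker, was below the controls in PLX5622 replicate 2 alone (1.22 CPM, against 2.37 to 2.63 CPM in the other 3 and 1.32 to 2.02 CPM in controls), and its difference was 0.34 ± 0.23 (edgeR adjusted p = 0.476), or 0.53 ± 0.21 without that library (edgeR adjusted p = 0.356).

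In the fit of all 23 libraries, unlike that of the 8 alone, the genes with the smallest p-values were outside the macrophage lists. None of them passed. Among those higher with PLX5622 were Adam23, a synaptic adhesion gene (0.28 ± 0.06), the actin nucleation gene Jmy (0.22 ± 0.05), the ganglioside synthesis gene St8sia1 (0.35 ± 0.08), the potassium channel gene Kcna2 (0.30 ± 0.07) and Slc35f1 (0.28 ± 0.06). Those lower were the transglutaminase gene Tgm2 (−0.50 ± 0.10), the histone deacetylase gene Hdac5 (−0.32 ± 0.07), the neonatal Fc receptor gene Fcgrt (−0.33 ± 0.07), Ankrd13b (−0.24 ± 0.05) and the ribosomal protein gene Rps29 (−0.42 ± 0.09). Each had an edgeR adjusted p of 0.147. In Tgm2 the values were 12.3, 10.5, 11.1 and 13.5 CPM with PLX5622, against 15.8, 15.8, 20 and 15.4 CPM in controls. All 10 passed without control replicate 2, and 8 of them passed in DESeq2, which gave no adjusted p for Tgm2 and Fcgrt.

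Over all genes tested, differences ran with transcript length. In the 10% of genes with the shortest transcripts the median log2 fold change was −0.05, and in the 10% with the longest it was 0.07, where WT mice had 0.00 and 0.02. Median length was 2340 bases among genes higher at an unadjusted p under 0.05, 876 bases among those lower, and 1582 bases over all genes. For the genes called without control replicate 2 it was 2643 bases for the higher and 761 bases for the lower. Ribosomal protein genes, which have short transcripts, had a median of −0.18 with all 16 below 0, against 50.1% of all genes. Without control replicate 2, 6 of the 16 passed as lower, against 2.71% of all genes.

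Within the 8 libraries the trend lay in 3 of the 4 controls. Expressed as the longest minus the shortest 10%, relative to the mean of the 23 libraries, it was 0.05, 0.00, −0.01 and 0.03 in the PLX5622 libraries, against −0.13, 0.05, −0.27 and −0.09 in the controls. Control replicate 2 was the one control on the side of the PLX5622 libraries. Outside the 8 it also varied between libraries, from −0.09 in G793A PLX3397 replicate 2 to 0.09 in WT control replicate 3. WT control replicate 1 was at −0.08. With the trend along length and GC content removed edgeR called 0 genes, and with control replicate 2 left out as well it called 169, against 980 without that correction. Whether library preparation, RNA quality or the diet gave this trend was not tested.

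**Figure D5:**
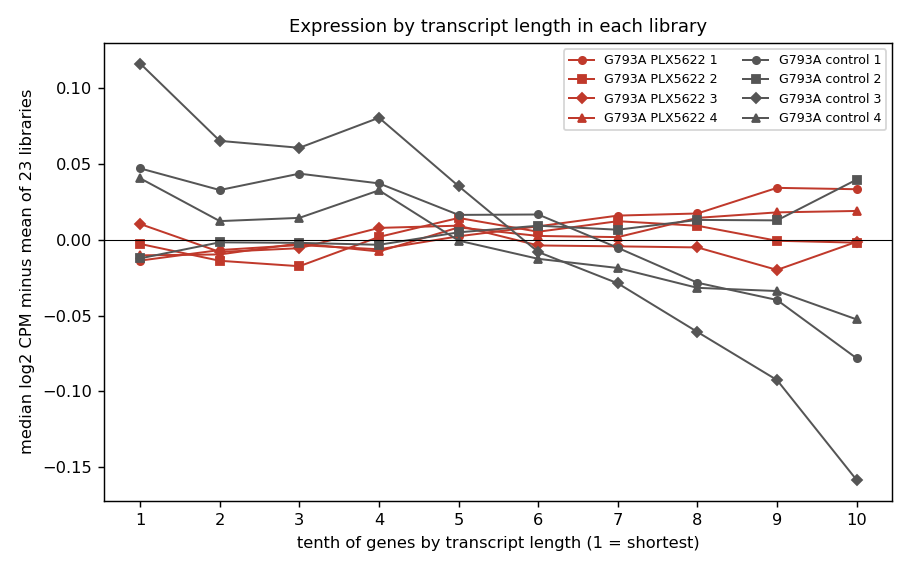
Median log2 CPM relative to the mean of all 23 libraries (vertical axis) for genes in 10 equal bins of transcript length, from shortest to longest (horizontal axis), 1 line per library of G793A mice on PLX5622 and on control chow. The PLX5622 lines stay between −0.02 and 0.03 throughout, while control replicate 3 runs from 0.12 to −0.16.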

How the data were processed

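RNA of 23 mouse brain samples was sequenced from poly(A)-selected stranded libraries, per the labels' protocols. Per the submitters' processing notes the tools were FastQC 0.11.9, kallisto 0.46.1 and DESeq2 1.26.0, and the notes name GRCm39. How gene values were obtained from transcripts is stated nowhere in the material used. The deposited table holds estimated counts for 22310 genes, of which 45.3% of values were not whole, so they were rounded. The authors' variance-stabilised log2 values, also deposited, served as an alternative. On that scale differences in genes with few counts are shrunk, so their sizes do not match those from counts. An entry with no gene name, 0.00935% to 0.0151% of the counts of the 8 libraries, was left out.

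Genes passing filterByExpr (minimum count 10, minimum total 15) numbered 16209. A robust quasi-likelihood model of all 6 groups was fitted in edgeR 4.0.16 (R 4.3.3, TMM scaling), with two-sided tests and Benjamini-Hochberg adjustment over all genes at 0.05. SE is the absolute log2 fold change divided by the square root of F, and intervals cover 95%. DESeq2 1.42.0 and limma 3.58.1 were alternatives. The scripts were tested on simulated counts. Total counts ranged from 29853510 to 40905926 with PLX5622 and from 30686879 to 48174788 in the G793A controls. All library pairs within the groups compared differed by more than counting noise (chi-square per degree of freedom 6.07 to 76.6).

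The members and lists (42 lists, 526 entries) were chosen with earlier results of these data known. Named genes were a fixed set, the 5 smallest p-values in each direction at a mean of 1 CPM or more, and the 5 smallest interaction p-values in each direction. Some genes of the set and lists are not reported here by name. Genes named beyond that rule were chosen after their values were seen, as stated beside most of them. This holds also for Fcrls, Olfml3, Selplg, Cst3, Cldn5, Tek, Itm2a and Ccr2. Sequences are RefSeq promoters on GRCm38.p6, a build other than that of the files, and lengths were matched by symbol for 98.1% of tested genes. No value came from a column outside these samples.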

Additional observations from a re-analysis of the deposited data

Results flagged for a closer look

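Single libraries stood away from the rest of their group in 8 of 76 checks of a named gene within a group, where chance gives about 1 in 20. The checks are not independent, since genes of the same library can move together, so the 8 are not a test against that rate. Csf1r was at 58.8 CPM in PLX5622 replicate 2 and at 88.4 CPM in control replicate 3. P2ry12 was at 32.7 CPM in PLX5622 replicate 3. Cbln3 was at 221 CPM in PLX5622 replicate 2, the library with cerebellar transcripts. Control replicate 3 stood high in Csf1 (22.6 CPM), Tgm2 (20 CPM), Pop7 (15 CPM) and the pituitary gene Prl (2.53 CPM), and it was also the library with the steepest trend along transcript length.

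The PLX5622 effect differed between G793A and WT mice by the interaction test in 131 genes. For the named genes the differences on the log2 scale were 2.75 for Csf1r, 3.32 for P2ry12, 3.65 for P2ry13, 2.37 for Tmem119, 2.98 for Cx3cr1, 2.89 for Siglech, 1.95 for Trem2, 3.04 for Itgam, 1.63 for Aif1, 4.00 for Mrc1, 3.33 for Pf4, 2.07 for Stab1 and 2.75 for Pld4, with G793A higher relative to WT. Plcxd1 was at −0.745, with G793A lower relative to WT.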

How the results depend on the processing

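The G793A comparison gave 0 genes in edgeR under all settings but these: DESeq2 gave 313, leaving out single libraries gave 0 to 980 (980 without control replicate 2), leaving out both replicate 2 libraries of the G793A groups 314, and the length and GC correction without control replicate 2 169. The last 2 settings and the correction alone were chosen after seeing the data. The interaction count stayed within 1.5 times 131 in every setting run, and was 115 to 144 without single libraries. PLX5622 against PLX3397 gave 1 gene, 2 in DESeq2, 0 in the 12 G793A libraries alone and 0 to 1 without single libraries.

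Signs changed in some named genes, among which Prl and Cbln3 were not close to 0. In the G793A comparison Csf1 was at 0.0080 without both cerebellar libraries and −0.078 to 0.012 without single libraries, Pdgfra at 0.045 without both cerebellar libraries, 0.044 in limma on the deposited values, 0.048 without both replicate 2 libraries and −0.047 to 0.038 without single libraries, Cspg4 at −0.0086 in limma on the deposited values and −0.0068 to 0.17 without single libraries, and Prl, reported at −0.93, at −3.12 to 1.05. In the interaction Kit was at −0.0031 in limma-voom, −0.14 without both cerebellar libraries, −0.023 with the correction and −0.12 to 0.079 without single libraries, Pdgfra at 0.024 without both cerebellar libraries and −0.062 to 0.025 without single ones, and Cbln3, reported at 3.15, at −2.54 to 6.16. The causes were not tested.

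Replicate numbers did not pair the libraries: correlations of same-numbered libraries ran from −0.118 to 0.140 and of others from −0.137 to 0.166. With a replicate block the counts were 0, 128 in the interaction and 1 for PLX5622 against PLX3397. Neutrophil genes had few counts, and their list median was 1.09 in the 12 libraries alone, so their size is loosely fixed. It was 0.29 in limma on the deposited values, where such differences are shrunk. Microglial intervals excluded a loss as large as in WT, not a smaller one.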

Other observations

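Among the 11 tested xenobiotic and NRF2 response genes, 2 had separate groups in the higher direction, against 2.55% of all genes, and both belong to glutathione synthesis. Gclc, the catalytic subunit gene of the rate-limiting enzyme, had 61.7, 61.0, 58.4 and 56.4 CPM in G793A mice on PLX5622, against 51.2, 55.2, 48.3 and 53.2 CPM in G793A controls (0.19 ± 0.05, edgeR adjusted p = 0.147). Gclm, its modifier subunit gene, stood at 68.9 to 76.5 CPM with PLX5622 and 64.4 to 68.3 CPM in controls (0.11 ± 0.06, edgeR adjusted p = 0.328). The median of the 11 was −0.03. The vascular chemokine gene Cxcl12 lay at 60.8 to 61.8 CPM in all 4 PLX5622 libraries and at 63.3 to 82.0 CPM in controls (−0.25 ± 0.07, edgeR adjusted p = 0.154). Among precursor genes, Vcan was higher in every PLX5622 library than in every control (0.22 ± 0.09) and Matn4 lower (−0.37 ± 0.12), and neither passed (edgeR adjusted p = 0.250 and 0.155). All were picked out after their values were seen.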
